A study of Mus musculus with 21 samples.

Results

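The antiapoptotic members of the BCL2 family keep mitochondria intact by holding the pore formers BAX and BAK and their BH3-only activators in check. B cells use several of them in turn. BCL2 itself is abundant in resting cells, MCL1 is a short-lived protein needed at most stages of B cell life, and BCL-xL, encoded by Bcl2l1, and A1, encoded by the Bcl2a1 genes, are induced when antigen receptors or CD40 signal through NF-kappaB. The expression of Bcl2, Bcl2l1, Bcl2l2, Mcl1, Bcl2a1a, Bcl2a1b and Bcl2a1d was followed here. These are 7 of the 23337 gene rows of the count table, taken by their symbols as the antiapoptotic genes of this family.

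RNA was counted in 21 bulk libraries of B cells from C57BL/6 mice of 8 to 12 weeks, with all mice of a group caged together, per the labels. The cells were sorted into TRIzol from Peyer's patches (PP, lymphoid follicles of the small intestine), mesenteric lymph nodes (mLN) and spleen, in a study of gut B cells that react to self, per its design text. They are labelled BCL2 HEL pos (libraries 922, 926 and 950 of each tissue), HEL pos (libraries 392, 399 and Pool) and HEL neg (1 library named Pool per tissue). The labels expand neither HEL nor BCL2, and give no allele, promoter or species for the BCL2 designation, no number of mice in a pool and no statement that a numbered library is 1 mouse. Every p-value therefore rests on how much libraries of a group varied, part of which may be technical.

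Library totals ran from 5475131 to 11340876 counts, and no 2 libraries of a group were alike within sampling noise. Transcripts of 8 B cell genes, among them Ms4a1 and Pax5, had counts in all 9 groups, and their sum lay between 23317 and 42578 CPM, counts scaled to the total of their library. Y-linked transcripts were near absent (0.869 CPM or less) from all 6 libraries of HEL pos cells numbered 392 or 399, and summed to 92.3 to 168 CPM in the other 15, the pools included. Transcripts of 13 gut epithelial genes summed to 16.4 to 157 CPM in PP BCL2 HEL pos cells, 236 to 1100.0 CPM in PP HEL pos cells and 1263 CPM in PP HEL neg cells, and to at most 37.1 CPM in any library of mLN or spleen. Transcripts of 8 granulocyte genes reached 53.0 to 191 CPM in spleen HEL pos cells and 76.7 CPM in spleen HEL neg cells, but at most 0.567 CPM in spleen BCL2 HEL pos cells. In bulk RNA, fewer cells of a type and less RNA per cell cannot be told apart.

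Bcl2a1a, Bcl2a1b and Bcl2a1d are near-identical copies on chromosome 9, so their sequences decide what the counts of each can mean. The first 60 coding bases of each copy are given from the GRCm38 (mm10) transcripts of GENCODE M21, with the positions at which the copies differ in capitals. They lie at chr9:89199360-89199419 on the plus strand for Bcl2a1b, chr9:88731660-88731719 on the minus strand for Bcl2a1d and chr9:88957051-88957110 on the plus strand for Bcl2a1a.
Bcl2a1b: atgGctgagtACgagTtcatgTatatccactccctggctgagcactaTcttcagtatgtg
Bcl2a1d: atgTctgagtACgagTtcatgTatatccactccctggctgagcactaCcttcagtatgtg
Bcl2a1a: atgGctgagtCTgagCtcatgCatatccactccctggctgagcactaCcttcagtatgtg
Over the 516 coding bases Bcl2a1b and Bcl2a1d were 98.8% identical, Bcl2a1a and Bcl2a1d 98.6%, and Bcl2a1a and Bcl2a1b 97.9%. Reads were 50 bases long. Of all 50-base stretches of its transcript, 160 of 768 of Bcl2a1b (20.8%), 167 of 814 of Bcl2a1d (20.5%) and 239 of 770 of Bcl2a1a (31.0%) occurred in no other gene. Bcl2a1b shared 442 of its stretches with Bcl2a1d. Stretches found in any other Bcl2a1 gene made up 57.6% of Bcl2a1b, 79.5% of Bcl2a1d and 69.0% of Bcl2a1a. The counting rule for reads that match several copies is not given in the sources used here, so the values of single copies are uncertain, and the 3 rows were also summed. The other members stood apart, with 93.3% of such stretches of Bcl2, 100% of Bcl2l1, 87.2% of Bcl2l2 and 100% of Mcl1 found in no other gene. Exons of Bcl2a1b overlap those of the annotated gene Gm29094 over 49.1% of their bases, those of Bcl2l2 overlap Gm20521 over 13.3%, and those of Bcl2 overlap the antisense gene D630008O14Rik over 6.09%. Gm29094 and Gm20521 lie on the same strand as their partners, and D630008O14Rik on the opposite one. Whether strand was used in counting is not given, and reads from the shared bases of these pairs cannot be told apart here.

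The starts of the copies are as alike as their coding parts. From the promoter windows of RefSeq (GRCm38.p6, 250 bases before to 50 after each annotated start), 99 aligned bases are shown. They are shown because Bcl2a1b and Bcl2a1d were both higher in PP and mLN than in spleen, as given below. Between cell groups these copies did not always move together. Capitals mark the reverse complement of GCGTGGGCG, the consensus bound by the EGR transcription factors, which was looked for after the sequences had been seen. The stretches are chr9:89199146-89199244 (plus strand) for Bcl2a1b, chr9:88731835-88731933 (minus strand) for Bcl2a1d, chr9:114329942-114330040 (plus strand) for Bcl2a1c, a shorter copy outside the 7 genes, and chr9:88956837-88956935 (plus strand) for Bcl2a1a.
Bcl2a1b: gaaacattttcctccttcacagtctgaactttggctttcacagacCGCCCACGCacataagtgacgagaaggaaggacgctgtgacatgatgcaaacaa
Bcl2a1d: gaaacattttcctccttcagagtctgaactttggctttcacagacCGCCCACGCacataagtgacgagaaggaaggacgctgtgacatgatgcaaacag
Bcl2a1c: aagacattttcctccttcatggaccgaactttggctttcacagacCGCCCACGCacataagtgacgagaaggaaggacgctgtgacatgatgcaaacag
Bcl2a1a: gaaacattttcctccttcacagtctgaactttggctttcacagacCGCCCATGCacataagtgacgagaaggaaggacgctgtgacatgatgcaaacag
The 9 letters are present in Bcl2a1b, Bcl2a1d and Bcl2a1c, at 82, 38 and 148 bases before the RefSeq start. GENCODE M21 places other starts, at chr9:89199209 for Bcl2a1b and chr9:88731914 for Bcl2a1d. By these the letters of Bcl2a1b still precede its start, and those of Bcl2a1d lie inside its transcript. Bcl2a1a carries C7T, counted from 1 at the first capital and relative to Bcl2a1b. On either strand, 201 of 32851 promoter windows (0.612%) hold GCGTGGGCG. The letters of an NF-kappaB consensus (0.155% of windows) and TGAGTCA, an AP-1 consensus (5.20%), were found on neither strand of any window of the 7 genes, each of which has at least 1. A match of letters is a description and shows no binding.

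Levels of the members are CPM of TMM-scaled library totals, whereas the marker sums above use plain totals. Levels per kilobase of exon set the genes in order. Mcl1 had a median over 21 libraries of 79.6 CPM per kilobase, Bcl2a1b 69.8, Bcl2a1d 17.4, Bcl2 10.9, Bcl2l1 2.96 and Bcl2l2 0.493. If reads shared by the Bcl2a1 copies were not counted, these levels and the shares of the family given below understate the copies, and the order of Mcl1 and Bcl2a1b could differ. Mcl1 and the Bcl2a1 genes thus made up most of the summed level in every library. Bcl2a1a was all but silent, with 0 to 7 counts per library and no count in 9 of the 21. Bcl2a1c, outside the 7 genes but with the 9 letters shown above, was low too, at 0.295 to 6.21 CPM (median 1.41). In HEL pos cells its log2 difference from spleen was 2.38 ± 0.62 in PP and 2.95 ± 0.62 in mLN (SE), and both passed the test used below. In BCL2 HEL pos cells it was 1.09 ± 0.62 in PP, which did not pass, and 2.05 ± 0.61 in mLN, which did. Whether the letters bear on these levels was not tested. Of the 7 genes, 6 passed the low-count filter and were tested, and Bcl2a1a was not.

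**Figure D1:**
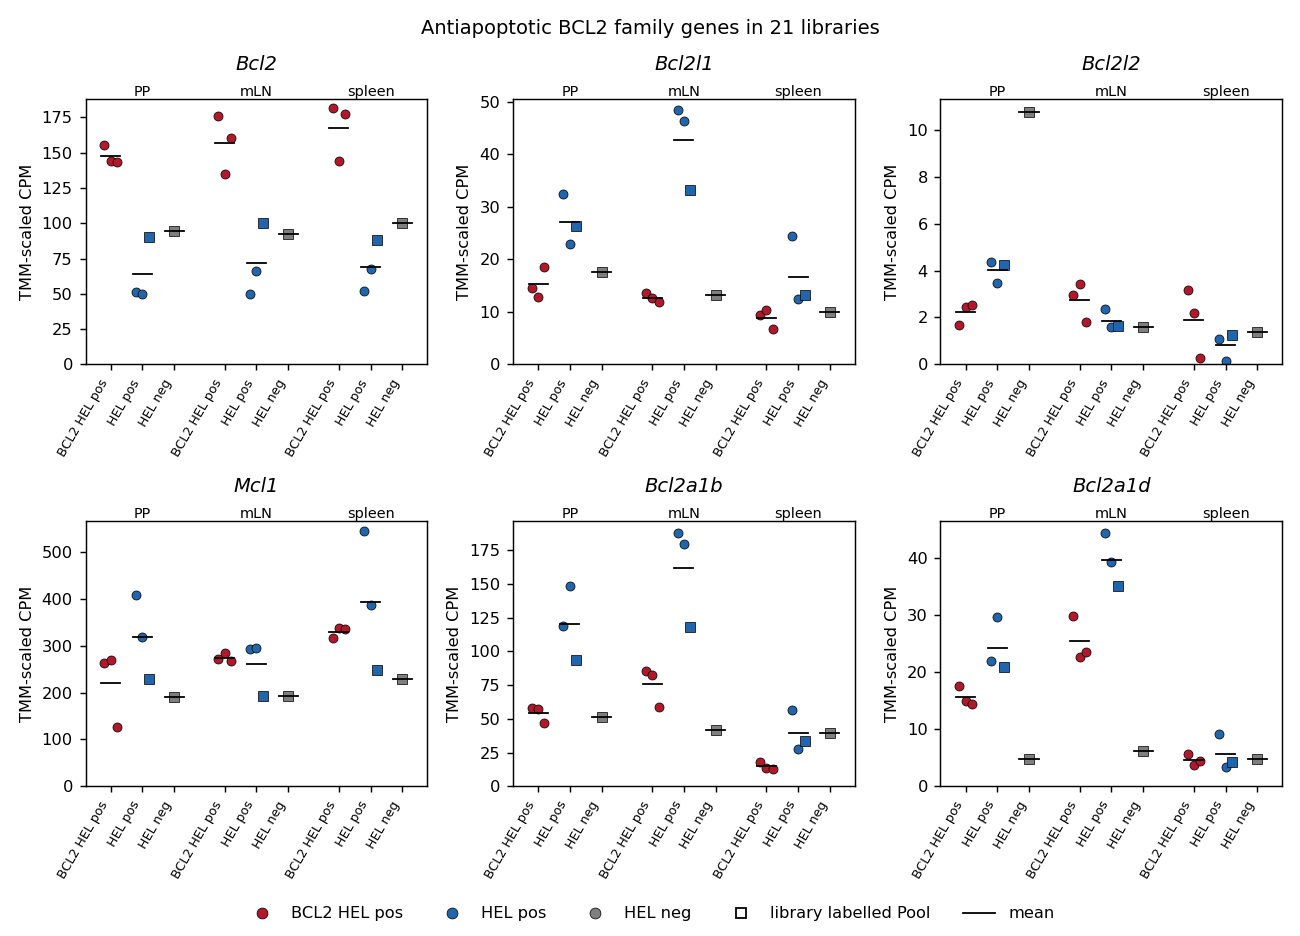
Level of 6 antiapoptotic genes (CPM of TMM-scaled totals, linear axis from 0) in each of 21 libraries, by tissue and cell group. Points are libraries, squares those named Pool, and lines group means. All 9 BCL2 HEL pos libraries lie above every other library for Bcl2, and Bcl2a1b is highest in mLN HEL pos cells.

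Bcl2 was first read as a check of the labels. In PP it stood at 155, 144 and 143 CPM in the BCL2 HEL pos libraries 922, 926 and 950, against 51.6, 49.8 and 90.3 CPM in the HEL pos libraries 392, 399 and Pool and 94.7 CPM in the HEL neg pool. In mLN it was at 176, 135 and 161 CPM in BCL2 HEL pos cells, 50.1, 65.9 and 99.9 CPM in HEL pos cells and 92.6 CPM in HEL neg cells. In spleen the values were 181, 144 and 177 CPM in BCL2 HEL pos cells, 52.2, 67.5 and 88.3 CPM in HEL pos cells and 100.2 CPM in HEL neg cells. Every BCL2 HEL pos library lay above every other library, so the row goes with the BCL2 label. Within HEL pos cells the pool was the highest library in each tissue and lay near the HEL neg pool. How far reads of an added BCL2 sequence would be counted in the mouse Bcl2 row cannot be read from the labels.

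Bcl2 was higher in BCL2 HEL pos than in HEL pos cells of PP by 1.19 ± 0.24 on the log2 scale (SE, 3 libraries each, edgeR quasi-likelihood test, adjusted p = 0.00333). In mLN the difference was 1.11 ± 0.23 (adjusted p = 0.00336) and in spleen 1.28 ± 0.24 (adjusted p = 0.00129), so that the level was 2.28-fold, 2.17-fold and 2.43-fold that of HEL pos cells in PP, mLN and spleen. Against the HEL pos pool alone, it came to 0.71 in PP (adjusted p = 0.0469), 0.65 in mLN (adjusted p = 0.0947, not called) and 0.93 in spleen (adjusted p = 0.0133). Without the pools it came to 1.51, 1.42 and 1.48 in PP, mLN and spleen. The pools also carried Y-linked transcripts, as the BCL2 HEL pos libraries did, and the part of this difference in the Bcl2 result was not tested. Between tissues Bcl2 did not pass the test within either cell group. In HEL pos cells its log2 difference was -0.12 ± 0.24 for PP against spleen and 0.06 ± 0.23 for mLN against spleen, and in BCL2 HEL pos cells -0.21 ± 0.23 and -0.11 ± 0.23.

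BCL2 HEL pos cells had less Bcl2l1 and less of the Bcl2a1 transcripts than HEL pos cells in all 3 tissues. In PP 3 of the 6 tested genes were called, with Bcl2 higher and Bcl2l1 and Bcl2a1b lower, against 10.1% of all tested genes (5.33% higher and 4.74% lower). In mLN and in spleen these 3 genes were again the ones called, in the same directions. Bcl2, 1 of the 3 in each tissue, had been read above as a check of the BCL2 label. Of all tested genes 11.7% were called in mLN (5.78% higher and 5.90% lower) and 9.37% in spleen (4.55% higher and 4.82% lower). The median log2 difference of the 6 was -0.74 in PP, -0.30 in mLN and -0.24 in spleen, beside medians of -0.01, -0.01 and 0.00 over all genes. The 3 comparisons use separate libraries, although the library numbers recur across tissues. In BCL2 HEL pos cells 6 of the 12 tested epithelial genes were lower in PP, and all 4 tested granulocyte genes were lower in spleen. Of the 8 B cell genes 3 were higher in PP and 4 in mLN, and in spleen 1 was higher and 1 lower. The part of these marker differences in the results was not tested.

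Bcl2l1 encodes BCL-xL, a membrane-anchored inhibitor of BAX and BAK. In mLN it stood at 13.6, 12.5 and 11.9 CPM in BCL2 HEL pos cells, against 48.4, 46.3 and 33.2 CPM in HEL pos cells, with the pool lowest, and 13.2 CPM in HEL neg cells. The groups were far apart, and the log2 difference of -1.77 ± 0.25 (adjusted p = 1.34e-04) was the largest of any member in this contrast. In PP it was at 14.5, 12.8 and 18.5 CPM in BCL2 HEL pos cells and 32.4, 22.8 and 26.3 CPM in HEL pos cells, without overlap, and fell by 0.84 ± 0.25 on the log2 scale (adjusted p = 0.0373). In spleen it was at 9.38, 10.4 and 6.64 CPM in BCL2 HEL pos cells and 24.4, 12.4 and 13.1 CPM in HEL pos cells, where library 392 stood above the other two, and fell by 0.89 ± 0.26 (adjusted p = 0.0365). The mLN call remained without any 1 library and against the pool alone (-1.39, adjusted p = 0.0163). The spleen call was lost without the HEL pos library 392 (-0.55, adjusted p = 0.210) or any 1 BCL2 HEL pos library (-0.93 without 922, -1.03 without 926 and -0.75 without 950). The PP call was lost without the HEL pos library Pool (-0.86) or 392 (-0.70), or the BCL2 HEL pos library 922 (-0.79) or 926 (-0.73), with adjusted p-values of 0.0543 to 0.119. In mLN, 6 of 12 tested T and NK cell genes were also lower in BCL2 HEL pos cells, their sum being 13.1 to 19.2 CPM there and 21.6 to 88.0 CPM in HEL pos cells, and their part in the Bcl2l1 result was not tested. Against the pool alone neither the PP nor the spleen call held, at -0.77 in PP (adjusted p = 0.117) and -0.56 in spleen (adjusted p = 0.378).

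Bcl2a1b, the most abundant copy of the gene for A1, was lower in BCL2 HEL pos cells of each tissue. In PP it stood at 58.4, 57.0 and 46.9 CPM in BCL2 HEL pos cells and 119, 148 and 93.7 CPM in HEL pos cells, the pool being lowest, with 51.1 CPM in HEL neg cells. In mLN it was at 85.6, 82.6 and 58.5 CPM in BCL2 HEL pos cells and 188, 179.6 and 118 CPM in HEL pos cells, with 41.5 CPM in HEL neg cells. In spleen it was at 18.3, 13.8 and 12.6 CPM in BCL2 HEL pos cells and 56.5, 27.9 and 33.9 CPM in HEL pos cells, with 39.7 CPM in HEL neg cells. The 2 groups did not overlap in any tissue. The log2 differences were -1.17 ± 0.23 in PP (adjusted p = 0.00361), -1.12 ± 0.23 in mLN (adjusted p = 0.00312) and -1.39 ± 0.25 in spleen (adjusted p = 0.00129), each with 3 libraries a group. No single left-out library ended these calls. Against the pool alone the spleen difference was called (-1.18, adjusted p = 0.0125), while -0.79 in PP (adjusted p = 0.0541) and -0.65 in mLN (adjusted p = 0.155) were not. In spleen HEL pos cells the granulocyte genes were highest in library 399, at 191 CPM, which had the lowest Bcl2a1b of the 3 libraries. They also reached 76.7 CPM in the spleen HEL neg pool. Their part in the Bcl2a1b result was not tested. When libraries 399 and Pool of PP HEL pos cells were left out, which had the most epithelial transcripts of that group (1100.0 and 749 CPM), the PP difference was -1.13 (adjusted p = 0.0507), and that of Bcl2l1 -1.07 (adjusted p = 0.0953).

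Bcl2a1d moved less. It was at 17.5, 15.0 and 14.4 CPM in BCL2 HEL pos cells of PP, against 21.9, 29.7 and 21.0 CPM in HEL pos cells. In mLN it was at 30.0, 22.8 and 23.6 CPM in BCL2 HEL pos cells and 44.5, 39.4 and 35.1 CPM in HEL pos cells, and in spleen at 5.63, 3.82 and 4.52 CPM and 9.10, 3.40 and 4.27 CPM in the same order of groups. The groups were apart in PP and mLN and overlapped in spleen. The log2 differences of -0.65 ± 0.26 in PP, -0.66 ± 0.25 in mLN and -0.24 ± 0.30 in spleen did not pass the test (adjusted p = 0.114, 0.0993 and 0.685). Summed over Bcl2a1a, Bcl2a1b and Bcl2a1d, which does not depend on how counted reads were split among these copies but would still miss shared reads that were dropped, the difference was -1.07 ± 0.23 in PP (adjusted p = 0.00565), -1.01 ± 0.23 in mLN (adjusted p = 0.00562) and -1.17 ± 0.25 in spleen (adjusted p = 0.00426). With PP 399 and Pool left out of HEL pos cells, the PP value was -1.01 (adjusted p = 0.0765). Against the pool alone this sum gave -0.72 in PP (adjusted p = 0.0658), -0.60 in mLN (adjusted p = 0.172) and -0.93 in spleen (adjusted p = 0.0364).

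Neither Mcl1 nor Bcl2l2 passed the test in this contrast. Mcl1 was at 264, 269.7 and 127 CPM in BCL2 HEL pos cells of PP, where library 950 was far below the other two, and at 408, 319 and 229.5 CPM in HEL pos cells. The log2 difference of -0.55 ± 0.26 (adjusted p = 0.190) came to -0.26 without library 950, and to -0.75 (adjusted p = 0.0380) without the HEL pos pools. In mLN it stood at 272, 284 and 268 CPM in BCL2 HEL pos cells and 294, 295 and 193 CPM in HEL pos cells (0.06 ± 0.26), and in spleen at 317, 339 and 335 CPM and 545, 388 and 249 CPM (-0.24 ± 0.26). The pool was the lowest HEL pos library for Mcl1 in each tissue, the reverse of Bcl2. Bcl2l2, which encodes BCL-w, was at 1.66, 2.45 and 2.54 CPM in BCL2 HEL pos cells of PP and 4.39, 3.46 and 4.23 CPM in HEL pos cells (-0.87 ± 0.63, adjusted p = 0.413). In mLN and spleen it lay at 0.266 to 3.41 CPM in BCL2 HEL pos cells and 0.148 to 2.37 CPM in HEL pos cells, where 3 counts correspond to 0.296 to 0.463 CPM.

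**Figure D2:**
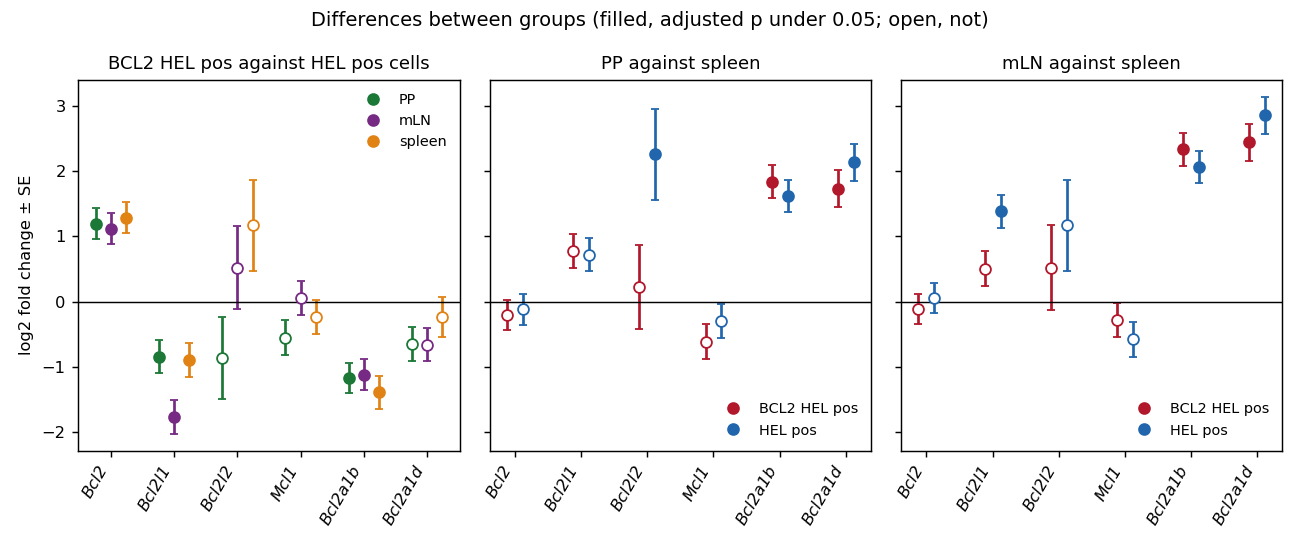
Log2 fold changes with their SE for 6 antiapoptotic genes. Left, BCL2 HEL pos against HEL pos cells by tissue; middle and right, PP and mLN against spleen within each cell group. Filled points passed an adjusted p of 0.05 and open points did not. Bcl2 is up by 1.11 to 1.28 and Bcl2a1b down by 1.12 to 1.39 in the left panel.

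The Bcl2a1 genes also separated the tissues. In HEL pos cells, 3 of the 6 tested genes were called higher in PP than in spleen (Bcl2a1b, Bcl2a1d and Bcl2l2) and 3 in mLN than in spleen (Bcl2a1b, Bcl2a1d and Bcl2l1), and none lower. Of all tested genes 15.4% were called for PP (7.94% higher and 7.43% lower) and 24.5% for mLN (12.9% higher and 11.5% lower). The median log2 difference of the 6 was 1.17 for PP and 1.27 for mLN, beside 0.02 and -0.01 over all genes. Between PP and mLN, 0 of 6 were called by edgeR and 0 by DESeq2, and Bcl2l1 and Bcl2a1d had an unadjusted p of 0.0133 and 0.00968. In that comparison 8.86% of all tested genes were called (5.34% higher and 3.52% lower). Since PP and mLN were set against the same spleen libraries, their 2 results are not independent. Of the 8 B cell genes 6 were lower in PP, and 6 in mLN, than in spleen, all 4 tested granulocyte genes were lower in both, and 10 of 12 tested epithelial genes were higher in PP. In mLN 4 of 12 T and NK cell genes and 4 of 6 plasma cell genes were higher than in spleen, and 1 plasma cell gene was lower. Lower there too were 4 of 7 macrophage and monocyte genes and all 3 tested erythroid and platelet genes. In PP 3 of the 6 plasma cell genes were higher. The part of these differences in the results was not tested.

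Summed over the copies, the Bcl2a1 level was 141, 178 and 115 CPM in PP HEL pos cells, 232, 219 and 153 CPM in mLN HEL pos cells and 65.9, 31.6 and 38.2 CPM in spleen HEL pos cells. Every PP and mLN library was above every spleen library. The log2 difference was 1.69 ± 0.24 for PP against spleen (adjusted p = 5.90e-05) and 2.18 ± 0.24 for mLN against spleen (adjusted p = 9.95e-07). Bcl2a1b rose by 1.62 ± 0.24 and 2.06 ± 0.24, and Bcl2a1d by 2.13 ± 0.28 and 2.86 ± 0.28, in PP and in mLN. These 4 calls were kept against the pools alone, without the pools and without any 1 library. PP against mLN gave -0.49 ± 0.22 for the sum (adjusted p = 0.176), and the ranges of the 2 tissues overlapped.

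Bcl2l1 followed the same order in HEL pos cells, at 27.2 ± 4.83 CPM in PP, 42.6 ± 8.24 CPM in mLN and 16.6 ± 6.71 CPM in spleen (SD, n = 3). It was higher in mLN than in spleen by 1.38 ± 0.25 (adjusted p = 2.97e-04), and the 2 groups did not overlap. PP against spleen gave 0.72 ± 0.25, just short of the threshold (adjusted p = 0.0582; 0.71 and called by DESeq2, adjusted p = 0.0418), with the lowest PP library at 22.8 CPM and the highest spleen library at 24.4 CPM. Bcl2l2 was at 4.39, 3.46 and 4.23 CPM in PP HEL pos cells and 1.08, 0.148 and 1.24 CPM in spleen HEL pos cells, a difference of 2.25 ± 0.69 (adjusted p = 0.0306) that rests on 1 to 29 counts per library. The call was lost without the PP library Pool (2.19) or 392 (2.17), or the spleen library 392 (2.42) or 399 (1.78), with adjusted p-values of 0.0519 to 0.116, and without the pools of both tissues (2.68, adjusted p = 0.0758). The PP HEL neg pool had the highest Bcl2l2 of all libraries, 10.8 CPM, and the most epithelial transcripts, 1263 CPM, while among the PP HEL pos libraries 399 had the most of these transcripts and the least Bcl2l2. The part of epithelial RNA in the Bcl2l2 result was not tested. Mcl1 was not called between tissues of HEL pos cells, with -0.30 ± 0.26 for PP and -0.58 ± 0.26 for mLN against spleen.

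In BCL2 HEL pos cells the tissue difference of the Bcl2a1 genes was of much the same size. Their sum was 75.9, 72.1 and 61.3 CPM in PP, 116, 106 and 82.6 CPM in mLN and 25.0, 17.6 and 17.1 CPM in spleen. No PP or mLN library came near the spleen values. The sum was higher in PP than in spleen by 1.79 ± 0.24 (adjusted p = 8.67e-05) and in mLN by 2.34 ± 0.25 (adjusted p = 3.24e-06). Of the marker genes, 7 of 12 epithelial genes were higher and 2 of 8 B cell genes lower in PP, and 3 of 8 B cell genes were lower and 3 of 6 plasma cell genes higher in mLN, and their part in the results was not tested. Both copies were called in both comparisons, 2 of the 6 tested genes in each, both higher. Of all tested genes 7.34% were called for PP (4.81% higher and 2.53% lower) and 10.0% for mLN (5.77% higher and 4.23% lower). Bcl2a1b rose by 1.83 ± 0.25 and 2.33 ± 0.25 and Bcl2a1d by 1.73 ± 0.28 and 2.44 ± 0.28. Bcl2l1 was not called, at 0.77 ± 0.26 for PP (adjusted p = 0.0816) and 0.51 ± 0.26 for mLN against spleen (adjusted p = 0.274). For PP against mLN 0 of the 6 were called by edgeR and 0 by DESeq2, against 1.16% of all tested genes (0.806% higher and 0.350% lower), and Bcl2a1b and Bcl2a1d had an unadjusted p of 0.0468 and 0.0118.

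Whether the tissue differences depended on the BCL2 label was tested as an interaction. No member was called for PP against spleen (0.00876% of all tested genes were) or for mLN against spleen (0.385%), by edgeR or by DESeq2. For the Bcl2a1 sum the interaction was 0.10 ± 0.33 with PP and 0.16 ± 0.33 with mLN. In edgeR's test 2 interactions had an unadjusted p under 0.05. These were Bcl2l2 with PP, at -2.03 ± 0.94 (adjusted p = 0.503), and Bcl2l1 with mLN, at -0.87 ± 0.36 (adjusted p = 0.444). The larger fall of Bcl2l1 in mLN than in spleen is therefore not shown to differ between the tissues.

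Set against the single HEL neg pools of each tissue, with tissue as a covariate, HEL pos cells had more Bcl2l1, by 0.99 ± 0.27 (adjusted p = 0.0331), and more Bcl2a1d, by 1.69 ± 0.43 (adjusted p = 0.0244). These were 2 of the 6 tested genes, both higher, against 8.68% of all tested genes (3.46% higher and 5.22% lower). Bcl2a1d averaged 23.2 ± 15.2 CPM in 9 HEL pos libraries and 5.24 ± 0.849 CPM in 3 HEL neg libraries (SD over tissues), and Bcl2l1 28.8 ± 12.7 CPM and 13.6 ± 3.79 CPM. In PP the lowest HEL pos library of Bcl2a1d stood at 21.0 CPM, against 4.72 CPM in the HEL neg pool. In mLN the same pair was 35.1 and 6.22 CPM, whereas in spleen the HEL pos libraries, at 9.10, 3.40 and 4.27 CPM, lay on both sides of the pool at 4.78 CPM. The Bcl2a1 sum differed by 1.04 ± 0.32 (adjusted p = 0.0568), Mcl1 by 0.65 ± 0.22 (adjusted p = 0.0798) and Bcl2 by -0.48 ± 0.21 (adjusted p = 0.174). When the HEL pos group was its pools alone, Bcl2 differed from HEL neg by -0.03 and Mcl1 by 0.14, and 0 of 6 genes were called (Bcl2l1 0.79, adjusted p = 0.227, and Bcl2a1d 1.59, adjusted p = 0.202). Without the pools, 5 of 6 genes were called. Bcl2 then differed by -0.78 (adjusted p = 0.00597), Mcl1 by 0.84 (adjusted p = 0.00500), Bcl2a1b by 1.14 (adjusted p = 0.0473) and the Bcl2a1 sum by 1.22 (adjusted p = 0.0420). All HEL pos libraries left, 392 and 399, lacked the Y-linked transcripts of the HEL neg pools (115 to 156 CPM), so the 2 differences cannot be told apart there. Transcripts of 7 dendritic cell genes summed to 29.8 to 58.1 CPM in HEL neg pools and 5.23 to 23.6 CPM in HEL pos libraries. Their part in the results was not tested. The Bcl2l1 call was lost without the HEL neg pool of mLN (0.68) or PP (1.21) or any of 4 HEL pos libraries (spleen, mLN or PP 392 at 0.88, 0.93 and 0.96, and mLN 399 at 0.95). The Bcl2a1d call was lost without the HEL neg pool of mLN (1.20) or PP (1.38) or the spleen HEL pos library 392 (1.60).

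BCL2 HEL pos cells differed from HEL neg cells in Bcl2, by 0.70 ± 0.11 (adjusted p = 5.79e-04), and in Bcl2a1d, by 1.21 ± 0.32 (adjusted p = 0.0170), again 2 of 6 genes, both higher, against 14.7% of all tested genes (6.56% higher and 8.10% lower). Bcl2 averaged 157 ± 17.3 CPM in 9 BCL2 HEL pos libraries and 95.9 ± 3.92 CPM in 3 HEL neg pools, without overlap. The Bcl2a1d call was lost without the HEL neg pool of mLN (0.79, adjusted p = 0.173) or PP (1.00, adjusted p = 0.117). Bcl2l1 stood at 12.3 ± 3.34 CPM in BCL2 HEL pos cells and 13.6 ± 3.79 CPM in HEL neg cells, and its difference of -0.16 ± 0.19 did not pass the test. The Bcl2a1 sum gave -0.03 ± 0.27. In this contrast 7 of 9 tested epithelial, 6 of 12 T and NK cell and 2 of 4 dendritic cell genes were lower in BCL2 HEL pos cells, and their part in the results was not tested. In spleen, however, the Bcl2a1 sum of all 3 BCL2 HEL pos libraries (17.1 to 25.0 CPM) lay below that of the HEL neg pool (44.8 CPM). In PP and mLN the sum of all 6 lay above that of their pools (56.1 and 47.7 CPM). With 1 HEL neg library per tissue, that contrast was not tested within tissues.

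The share of Bcl2a1d among the counts of the 2 expressed copies varied between groups. The exact permutation test used for it could not pass a threshold of 0.05 with 3 library numbers against 3. Of the counts of Bcl2a1b and Bcl2a1d together, Bcl2a1d took 20.8% to 28.7% in the 9 BCL2 HEL pos libraries, 10.8% to 22.9% in the 9 HEL pos libraries and 8.46% to 13.0% in the 3 HEL neg pools. In spleen it was 23.9 ± 2.34% in BCL2 HEL pos cells and 12.0 ± 1.66% in HEL pos cells, in PP 22.5 ± 1.43% and 16.9 ± 1.38%, and in mLN 25.4 ± 3.59% and 20.0 ± 2.56% (SD, n = 3). The ranges were apart in spleen and PP and overlapped in mLN. Exact 95% binomial intervals of single libraries, which cover counting error only, were as wide as 19.0% to 34.8% in spleen and as narrow as 17.6% to 20.8% in mLN. Averaged over tissues for each library number, the share was 23.9 ± 2.41% for BCL2 HEL pos and 16.3 ± 1.14% for HEL pos (n = 3 each). That difference of 7.63 percentage points gave p = 0.1 in a two-sided exact permutation test, the smallest p that 3 against 3 allows. Of the 50-base stretches, 57.6% of those of Bcl2a1b and 79.5% of those of Bcl2a1d occur in another copy. These shares of counts therefore depend on how shared reads were counted.

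**Figure D3:**
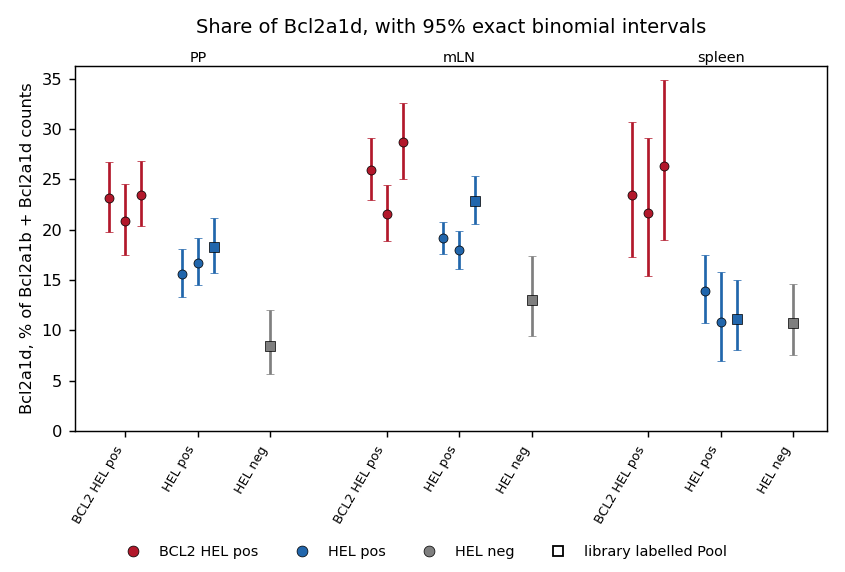
Share of Bcl2a1d among the counts of Bcl2a1b and Bcl2a1d (percent) in each of 21 libraries, by tissue and cell group, with exact 95% binomial intervals. Squares are libraries named Pool. BCL2 HEL pos libraries lie between 20.8% and 28.7% and HEL neg pools between 8.46% and 13.0%.

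Per kilobase of exon, the balance of the family shifted with tissue and cell group. The Bcl2a1 genes held 50.6 ± 5.01% of the summed level of the 7 genes in PP BCL2 HEL pos cells, 62.0 ± 5.58% in PP HEL pos cells and 48.5% in the PP HEL neg pool. In mLN they held 54.5 ± 3.94%, 72.1 ± 1.07% and 45.3% in these groups, and in spleen 17.0 ± 3.28%, 30.3 ± 5.90% and 40.3% (SD, n = 3, single pools without SD). Mcl1 took most of the rest, from 22.5 ± 0.839% in mLN HEL pos cells to 68.4 ± 4.10% in spleen BCL2 HEL pos cells. Bcl2 held 9.79 ± 1.86%, 7.73 ± 1.22% and 12.9 ± 1.39% in BCL2 HEL pos cells of PP, mLN and spleen, against 2.66 ± 1.53%, 2.52 ± 1.47% and 4.70 ± 2.52% in HEL pos cells. Bcl2l1 held at most 3.07% in any library. The summed level was highest in mLN HEL pos cells, at 338 ± 67.6 CPM per kilobase, and lowest in the mLN HEL neg pool, at 128 CPM per kilobase.

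**Figure D4:**
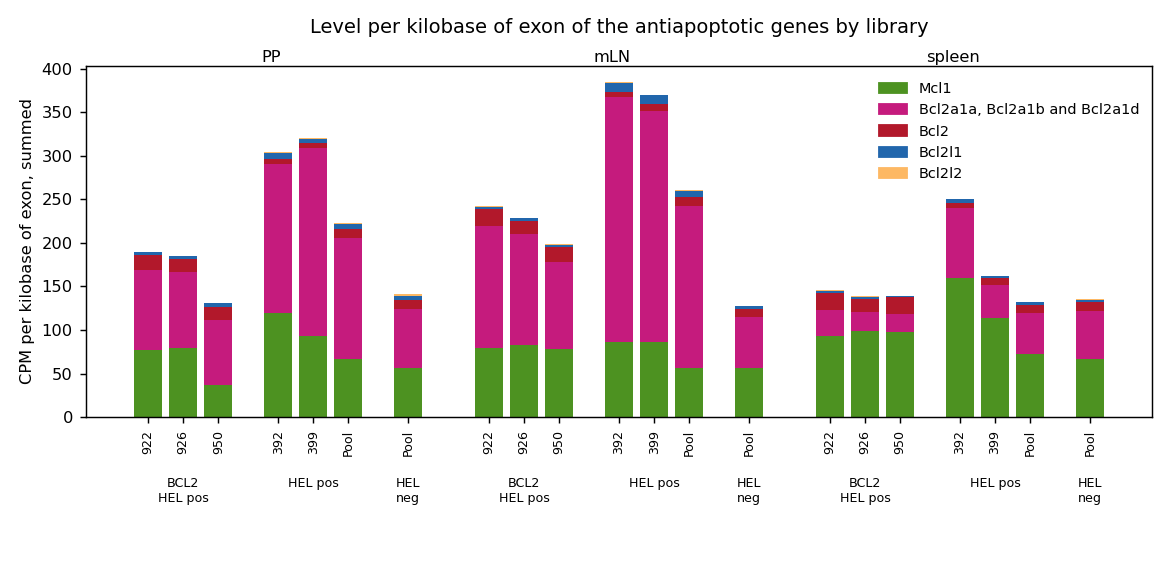
Level per kilobase of exon (CPM of TMM-scaled totals per kilobase, summed) of the antiapoptotic genes in each of 21 libraries, by tissue and cell group. Each bar is 1 library, and colours are genes. The Bcl2a1 part is largest in mLN HEL pos cells (72.1% on average) and smallest in spleen BCL2 HEL pos cells (17.0%).

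The proapoptotic side of the family was read from lists of its genes. Of the BH3-only genes, whose products neutralise the antiapoptotic proteins, 6 of 8 were tested. In BCL2 HEL pos against HEL pos cells Pmaip1, which encodes the MCL1 and A1 binder NOXA, was higher in every tissue. It rose by 1.80 ± 0.32 in PP (31.2 ± 9.31 CPM in BCL2 HEL pos cells, 8.85 ± 3.63 CPM in HEL pos cells, adjusted p = 0.00135), by 1.11 ± 0.31 in mLN (adjusted p = 0.0222) and by 1.77 ± 0.31 in spleen (adjusted p = 8.44e-04). In spleen 3 BH3-only genes rose and 2 fell. Among them Bcl2l11, which encodes BIM, rose by 0.97 ± 0.21 (adjusted p = 0.00489), while Bid fell by 0.93 ± 0.17 (adjusted p = 0.00147). In PP and in mLN Pmaip1 was the 1 BH3-only gene called. The mLN call of Pmaip1 was lost without the HEL pos library 392 or 399 or the BCL2 HEL pos library 926 (0.87 to 1.29 over all left-out libraries, and 0.81 against the pool alone, adjusted p = 0.269). Neither of the 2 tested pore-forming genes was called in any of the 3 tissues.

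Between tissues, Bcl2l11 was higher in PP and mLN than in spleen in HEL pos cells, and in mLN alone in BCL2 HEL pos cells. In HEL pos cells it was at 87.1 ± 1.38 CPM in PP, 188 ± 14.1 CPM in mLN and 45.6 ± 7.57 CPM in spleen (SD, n = 3). It was higher in PP than in spleen by 0.93 ± 0.21 (adjusted p = 0.00392) and in mLN by 2.05 ± 0.21 (adjusted p = 4.77e-07). PP against mLN gave -1.12 ± 0.20 (adjusted p = 0.00197). Of the BH3-only genes, 1 rose and 2 fell in PP and in mLN against spleen, the 2 that fell being Bid (-0.65 ± 0.17 and -0.63 ± 0.17) and Bad (-0.65 ± 0.20 and -0.58 ± 0.20), and each of these 4 calls was lost without 1 to 5 of the single libraries. In BCL2 HEL pos cells Bcl2l11 was higher in mLN than in spleen by 0.90 ± 0.20 (adjusted p = 0.00604, and 0.0809 without the mLN library 926). In PP it averaged 65.7 ± 16.2 CPM in these cells, and in spleen 88.5 ± 14.4 CPM (SD, n = 3), and did not pass the test. Of the 6 tested BH3-only genes only Bmf was called for PP against spleen, and it was lower in PP than in spleen (-0.82 ± 0.22, adjusted p = 0.0269, lost without any 1 library). Against HEL neg cells, Pmaip1 was lower in HEL pos cells (-1.23 ± 0.26, adjusted p = 0.00935). It averaged 10.1 ± 2.96 CPM in HEL pos cells and 23.9 ± 3.02 CPM in HEL neg cells (SD). In BCL2 HEL pos cells Bid was lower (-0.86 ± 0.13, adjusted p = 2.92e-04) and Bcl2l11 higher (1.12 ± 0.26, adjusted p = 0.00827) than in HEL neg cells. Bmf was higher than in HEL neg cells both in BCL2 HEL pos cells (2.28 ± 0.14, adjusted p = 2.88e-08) and in HEL pos cells (1.69 ± 0.28, adjusted p = 0.00252). With the pools alone as HEL pos cells it was 1.34 (adjusted p = 0.0587).

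NF-kappaB drives Bcl2a1 and Bcl2l1 in activated B cells. Of its 5 subunit genes, 2 rose and 1 fell in PP against spleen HEL pos cells, and 1 rose in mLN against spleen. Rel, the subunit known to induce Bcl2a1, rose by 0.87 ± 0.14 in PP (197 ± 27.3 CPM in PP, 108 ± 11.8 CPM in spleen, adjusted p = 1.91e-04) and by 0.79 ± 0.14 in mLN (adjusted p = 1.79e-04). Of 9 NF-kappaB target genes, 4 rose and 1 fell in each comparison, led by the activation marker Cd83 at 2.23 ± 0.16 in PP and 1.98 ± 0.16 in mLN, with Birc3 lower at -0.72 ± 0.14 and -1.11 ± 0.15. The median log2 difference of the 9 was 0.27 in PP and 0.43 in mLN, beside 0.02 and -0.01 over all genes. In BCL2 HEL pos cells Rel rose by 0.72 ± 0.14 in PP and 0.43 ± 0.14 in mLN against spleen, and Cd83 by 2.36 ± 0.16 and 1.63 ± 0.16. Of the survival receptors, Cd40 fell by 0.71 ± 0.16 in PP and 1.27 ± 0.16 in mLN against spleen HEL pos cells, and Tnfrsf13c, the BAFF receptor, by 0.69 ± 0.12 in mLN. Against the pools alone the Rel differences were 0.68 in PP and 0.64 in mLN (adjusted p = 0.115 and 0.130), and in BCL2 HEL pos cells the mLN call of Rel was lost without any of 5 single libraries (0.33 to 0.53 over all 6 left-out libraries).

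In BCL2 HEL pos against HEL pos cells, where Bcl2a1b and Bcl2l1 were lower, calls among these genes went in both directions over the 3 tissues. Of all tested genes 10.1% were called in PP, 11.7% in mLN and 9.37% in spleen. Of the 5 subunits, 1 rose in PP (Rela, 0.61 ± 0.14), 1 fell in mLN (Nfkb2, -0.60 ± 0.13) and none was called in spleen. Of the 9 targets, 1 rose in PP (Birc3, 0.46 ± 0.14), 1 fell in mLN (Nfkbie, -0.59 ± 0.15) and 2 fell in spleen (Nfkbid, -0.89 ± 0.23, and Icam1, -0.56 ± 0.15). The calls of Birc3, Nfkbie, Nfkbid and Icam1 were each lost without 3 to 5 of the single libraries. Of the 3 tested survival receptors 2 fell in spleen, Tnfrsf13c by 0.42 ± 0.12 and Tnfrsf13b by 0.50 ± 0.15, each lost without 4 or 5 of the 6 libraries. Of the 5 genes of MCL1 turnover, 4 were tested and 1, Btrc, fell in spleen (-0.76 ± 0.19, adjusted p = 0.0143, lost without 3 of 6 single libraries). Of 7 apoptosome and caspase genes, Cycs fell in PP (-0.44 ± 0.14, adjusted p = 0.0499) and mLN (-0.76 ± 0.14, adjusted p = 0.00145) and Casp9 rose in mLN (0.57 ± 0.18, adjusted p = 0.0405). The PP call of Cycs was lost without 4 and the Casp9 call without 5 of the 6 libraries.

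Among 8361 other genes with a mean log2 CPM of at least 3, those whose log2 levels ran most like each member over the 21 libraries were listed as a description. All points share libraries and the 9 groups. For the Bcl2a1 sum they were Mif (Pearson's r = 0.966), Shmt1 (0.961) and Eif1ax (0.959), and for Bcl2l1 Psma7 (0.926), Dtymk (0.910) and Slc25a5 (0.910). Bcl2 was most like Pttg1ip (0.905), Pear1 (0.897) and Cbx7 (0.895), and Mcl1 like Mtch1 (0.937). Bcl2l1 and Bcl2a1b themselves ran together (r = 0.85), Bcl2 ran against Bcl2l1 (r = -0.718), and Mcl1 followed neither Bcl2l1 (r = 0.01) nor Bcl2a1b (r = -0.07).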

How the data were processed

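RNA of 21 libraries was sequenced as single-end reads of 50 bases. Of the 2 library kits in the labels' protocols, TruSeq and Nextera XT, the one behind each library is not stated. The deposited values were raw read counts per gene. The submitters' processing notes name STAR, HTSeq, DESeq2 and mm10, without roles or parameters.

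Genes were filtered with filterByExpr by group (minimum count 10), scaled with TMM and compared by edgeR 4.0.16 (R 4.3.3; two-sided quasi-likelihood F-test), with Benjamini-Hochberg adjustment over all genes tested and an adjusted p under 0.05 as the threshold. HEL pos and BCL2 HEL pos cells were fitted together (18 libraries, 11419 genes). For comparison with HEL neg cells, each had a separate 12-library fit that included tissue (HEL pos 11406 genes, BCL2 HEL pos 10987 genes). In these fits the filter went by cell label over all tissues, not by tissue and cell group. The steps were tested on simulated data. Bcl2a1a, Bcl2a1b and Bcl2a1d were also added before filtering. Totals of 5475131 to 11340876 counts make 3 counts worth 0.263 to 0.519 CPM. Of 23337 symbols, 20929 were found in GENCODE M21.

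The members and lists were chosen with earlier results of these data known. All members are described, and of each pathway list at most 3 called genes per comparison, those of smallest adjusted p, are named. One item of the marker lists is not reported here. DESeq2 1.42.0, its size factors, no filter, fits of the compared libraries alone, a replicate block and left-out libraries were tried.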

Additional observations from a re-analysis of the deposited data

How the results depend on the processing

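The calls of members kept their direction and their side of the threshold in 30 of 30 cases with DESeq2, with its size factors and without the filter, in 23 of 26 with only the compared libraries, in 27 of 28 without the HEL pos pools, in 24 of 28 without PP 399 and Pool of HEL pos cells, in 18 of 28 with the pools alone as HEL pos cells (chosen after the data were seen, the lone library being assumed to vary like the other groups) and in 181 of 204 with 1 library left out. These cases count the calls of the Bcl2a1 sum together with those of the members, although the sum repeats the counts of its copies. With only the compared libraries, Bcl2l1 in spleen and PP (BCL2 HEL pos against HEL pos) and Bcl2l2 (PP against spleen, HEL pos) were lost. The number of members called changed, for BCL2 HEL pos against HEL pos, to 1 in mLN and 1 in PP with the pools alone and to 1 in PP without PP 399 and Pool (3 in the report). For HEL pos against HEL neg it changed from 2 to 4 with DESeq2, 5 without the filter, 5 without the pools (Bcl2 then -0.78) and 0 with the pools alone. With 1 library left out it ran from 0 to 4 there, from 1 to 3 for BCL2 HEL pos against HEL neg, and from 2 to 3 in spleen, PP and PP against spleen in HEL pos cells. Library numbers recur across tissues, and 7 of 18 same-numbered pairs had deviations correlated above 0.1 (0.0241 to 0.235 over all 18), which is short of every pair. All 18 were above 0, but not every library correlated best with its own number (mLN 399 reached 0.0718 with spleen 392 and 0.0241 with spleen 399), so the numbers are not used as pairs, and whether they mark mice is not stated. With a replicate block all 14 calls, again of members and the sum together, were kept. Then 2 members were called for PP against mLN in HEL pos cells (Bcl2l1 -0.66, Bcl2a1d -0.71). For PP against spleen in BCL2 HEL pos cells 4 were called (also Bcl2l1 0.77, Mcl1 -0.66). Against spleen in HEL pos cells, Bcl2l1 0.75 (PP) and Mcl1 -0.54 (mLN) were called too. DESeq2 called 4 members for PP against spleen in HEL pos cells (3 in the report), also with Bcl2l1. Uncalled values changed sign as follows. With the pools alone Mcl1 was 0.42 and Bcl2a1d 0.13 in spleen, Bcl2 0.018 for PP against spleen, and the interactions of Bcl2l1 with PP -0.21 and Bcl2l2 with mLN 0.13. Without the pools Mcl1 was -0.12 in mLN, Bcl2 -0.030 for mLN against spleen and its interaction with PP 0.038. Without PP 399 and Pool Mcl1 was 0.035 for PP against spleen and the interactions with PP were 0.24 for Bcl2 and -0.18 for Bcl2l1. With 1 library left out, Mcl1 ran from -0.50 to 0.040 in spleen and -0.12 to 0.17 in mLN, Bcl2a1d from -0.48 to 0.25 in spleen, and in HEL pos cells Bcl2 from -0.48 to 0.083 (PP against spleen), -0.26 to 0.26 (mLN against spleen) and -0.51 to 0.14 (PP against mLN). Bcl2l2 ran from -0.28 to 0.80 for PP against spleen in BCL2 HEL pos cells. Interactions with PP ran from -0.28 to 0.28 (Bcl2), -0.29 to 0.23 (Bcl2l1), -0.085 to 0.42 (Bcl2a1b) and -0.23 to 0.30 (Bcl2a1 sum), and with mLN from -0.37 to 0.13 (Bcl2), -0.040 to 0.46 (Bcl2a1b) and -0.18 to 0.35 (sum). For BCL2 HEL pos against HEL neg, Bcl2l2 ran from -1.30 to 0.62, Bcl2a1b from -0.73 to 0.43 and the sum from -0.49 to 0.66, which was called without the spleen HEL neg pool (adjusted p = 0.0364). The causes were not tested. Over all genes, with the pools alone the calls numbered 635, 265 and 411 in PP, mLN and spleen (1150, 1334 and 1070 in the report), 505 for PP and 658 for mLN against spleen in HEL pos cells (1756 and 2794). The contrast of HEL pos with HEL neg cells had 73 (990 in the report, 1551 with DESeq2). With only the compared libraries they numbered 286 in PP and 2105 in mLN, 800 for PP against spleen and 344 for PP against mLN in HEL pos cells (1012 in the report), and 1946 for mLN against spleen in BCL2 HEL pos cells (1142). Without PP 399 and Pool they numbered 255 in PP and, in HEL pos cells, 640 for PP against spleen and 209 for PP against mLN, which had 551 without the pools and 24 with the pools alone. The replicate block gave 1634 for PP against mLN in HEL pos cells, and in BCL2 HEL pos cells 1388 for PP (838) and 1773 for mLN against spleen. PP against mLN in BCL2 HEL pos cells had 132, and 249 with DESeq2, 395 without the filter, 480 with the block and 215 with the pools alone. The interaction with PP had 1, and 48, 114, 48 and 0 under these settings, and that with mLN 44, and 158, 191, 192 and 2. HEL pos against HEL neg had 1495 without the filter. Plain totals moved 1 of 48 mean levels by more than 1 SD.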
